A study of Mus musculus with 24 samples.

Results

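Of the 27179 genes in the count table, 82 encode chemokines, interleukins or ligands of the tumour necrosis factor (TNF) family. They were chosen by mouse symbol among protein-coding rows: Ccl, Cxcl or Tnfsf with a digit, or Il with digits and an optional letter where the symbol names a ligand rather than a receptor, plus Tnf and Lif. Tnfsf11 was left out. The rule used no measured value. It gave 25 CC chemokines, 12 CXC chemokines, 34 interleukins with Lif among them, and 11 TNF ligands. A total of 55 members passed the filter on low counts and were tested, and 27 did not. In at least 1 of the 12 sorted groups, 44 members reached a mean of 1 CPM (a gene's count scaled to a TMM-adjusted library total of 1000000), 22 reached 10 CPM and 9 reached 100 CPM.

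The 24 RNA-seq libraries come from mammary epithelium of mice at puberty, 2 for each of 12 groups. Microdissection separated the ducts from the terminal end buds (TEBs), the club-shaped growing tips of the ductal tree, and lineage-negative EpCAM+ cells were sorted by CD29 into basal (CD29hi) and luminal (CD29lo) gates. Mice carried either Elf5-rtTA-IRES-GFP, whose GFP reports activity of the Elf5 promoter, or PR-cre with Rosa26-LSL-eYFP, whose YFP marks cells in which Cre driven from the progesterone receptor locus has removed a stop cassette. The 12 groups are basal cells of either model, luminal GFP+, GFP-, YFP+ and YFP- cells, each from ducts and from TEBs. Every group thus carries a reporter allele, and no reporter-free animal was among the groups. Because Cre excision is permanent, YFP also stays on in cells that no longer express PR-cre. The labels give no age beyond puberty. They do not state whether the libraries of a group came from different animals. The p-values therefore reflect how much these libraries varied, which may be technical.

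Luminal GFP+ and YFP- libraries both carried Elf5, an ETS factor of luminal progenitors, at 410.0 to 1657 CPM, and are called the progenitor side here, a class set by the reporter labels. Luminal GFP- and YFP+ libraries carried Pgr, the progesterone receptor, at 202 to 635 CPM, and are called the hormone side. Elf5 was at most 87.3 CPM and Pgr at most 73.3 CPM in the opposite luminal class. Each class (basal, progenitor side, hormone side) has 4 libraries in each tissue, 2 of each mouse model. Within a luminal class the mouse model and the reporter cannot be told apart. Where 4 values are listed, the order is Elf5-model replicates 1 and 2, then PR-cre-model replicates 1 and 2. Basal libraries carried Acta2 at 3214 to 10228 CPM against at most 14.6 CPM in luminal ones, and Epcam was present in every library (186 to 1800 CPM).

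Libraries held 31264622 to 52495208 counts, and 3 counts, the limit that a count of 0 allows, correspond to 0.058 to 0.097 CPM. These limits cover counting error only. A pair of luminal libraries stood apart. GFP- duct replicate 2 had a sum of 2739 CPM over 12 keratinocyte genes, where the other hormone-side libraries had at most 49.3 CPM, and YFP- TEB replicate 2 had 578 CPM, where the other progenitor-side libraries had at most 134 CPM. Skin keratinocytes themselves express several chemokines and interleukins. Counts of called members are given with and without this pair of libraries, as are several results for single genes.

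Chemokines are small secreted proteins that bind G-protein-coupled receptors and direct the movement of leukocytes and other cells. Interleukins and TNF ligands act through single-pass receptors that signal mainly to STAT factors or to NF-kB, and TNF and interleukin 1 family members in turn induce many chemokine genes. In the mammary gland, macrophages and eosinophils gather around growing TEBs, LIF acts through STAT3 at weaning, and the related ligand RANKL relays the progesterone signal between luminal cells. Epithelial cells are themselves a source of these ligands.

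The promoters of several members hold a match to the kappa B consensus, the sequence that NF-kB recognises, and those of Cxcl1, Cxcl2, Cxcl10 and Il6 are shown because these genes were highest in 3 different classes. Each sequence holds the 250 bases before the RefSeq transcript start (build GRCm38.p6), 5′ to 3′ on the gene's strand, with matches in capitals. Cxcl1 lies at chr5:90890995-90891244 on the plus strand, Cxcl2 at chr5:90903649-90903898 on the plus strand, Cxcl10 at chr5:92348890-92349139 on the minus strand and Il6 at chr5:30012864-30013113 on the plus strand.
Cxcl1: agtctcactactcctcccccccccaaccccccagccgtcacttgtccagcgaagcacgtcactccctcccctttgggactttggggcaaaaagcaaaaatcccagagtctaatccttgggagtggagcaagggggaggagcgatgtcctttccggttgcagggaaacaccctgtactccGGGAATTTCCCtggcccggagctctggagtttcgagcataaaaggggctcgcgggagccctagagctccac
Cxcl2: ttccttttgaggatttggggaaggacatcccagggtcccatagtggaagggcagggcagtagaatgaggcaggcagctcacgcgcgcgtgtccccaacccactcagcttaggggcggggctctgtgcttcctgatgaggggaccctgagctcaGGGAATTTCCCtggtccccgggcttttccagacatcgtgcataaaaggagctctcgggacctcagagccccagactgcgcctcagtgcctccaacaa
Cxcl10: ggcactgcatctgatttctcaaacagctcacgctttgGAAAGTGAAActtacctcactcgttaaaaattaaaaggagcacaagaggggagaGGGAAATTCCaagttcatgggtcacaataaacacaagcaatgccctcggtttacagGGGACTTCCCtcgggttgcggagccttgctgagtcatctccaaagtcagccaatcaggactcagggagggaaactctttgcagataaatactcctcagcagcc
Il6: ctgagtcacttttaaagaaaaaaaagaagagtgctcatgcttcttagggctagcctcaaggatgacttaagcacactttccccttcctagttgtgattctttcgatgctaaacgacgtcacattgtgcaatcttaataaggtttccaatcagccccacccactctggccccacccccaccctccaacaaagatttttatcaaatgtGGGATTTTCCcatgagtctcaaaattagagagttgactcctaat
The capitals mark the NF-kB kappa B consensus, searched on both strands, and in Cxcl10 also the interferon-stimulated response element GAAANNGAAA as the first run of capitals. Cxcl1 and Cxcl2 hold the same 11 bases, from 71 to 61 bases before the start in Cxcl1 and from 97 to 87 in Cxcl2. Cxcl10 has a response element 213 to 204 bases before its start and kappa B matches 159 to 150 and 103 to 94 bases before it. The Il6 match lies 44 to 35 bases before the start. RefSeq promoters were found for 59 members. The kappa B consensus occurred in 9 of their 72 promoters (12.5%), against 1281 of all 32851 promoters of that length (3.9%). The response element occurred in 6 of 72 (8.33%) against 978 of 32851 (2.98%). Among the 28 of the 44 members at 1 CPM or more that had a promoter in the table, Il16 and Ccl9 also had a kappa B match and Ccl19 and Cxcl14 a response element. A match is a description of these letters and does not show binding.

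The basal gate held the highest class mean for 22 of the 44 members that reached 1 CPM, the progenitor side for 11 and the hormone side for 11. Ducts held the highest mean for 35 of them and TEBs for 9. In basal ducts the highest mean was found for Cxcl14, Cxcl12, Ccl2, Tnfsf9, Il34, Il6, Tnfsf12, Ccl27a, Il7, Il24, Il11, Ccl7, Ccl11, Tnfsf8, Ccl21a, Il16, Il17d, Ccl19, Ccl28, Il10 and Ccl21b, and in basal TEBs for Il17b. Progenitor-side ducts led for Cxcl1, Cxcl2, Lif, Tnf, Cxcl16, Il15, Tnfsf13, Il23a, Il17c and Ccl9, and progenitor-side TEBs for Tnfsf10. Hormone-side ducts led for Cxcl15, Cxcl17, Ccl25 and Tnfsf15, and hormone-side TEBs for Il33, Cxcl10, Cxcl13, Cxcl9, Ccl5, Cxcl5 and Il18. A highest mean alone does not show a difference from the next class. The same count was not made over all genes, so these numbers do not show a leaning of the members to a gate or tissue.

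**Figure D1:**
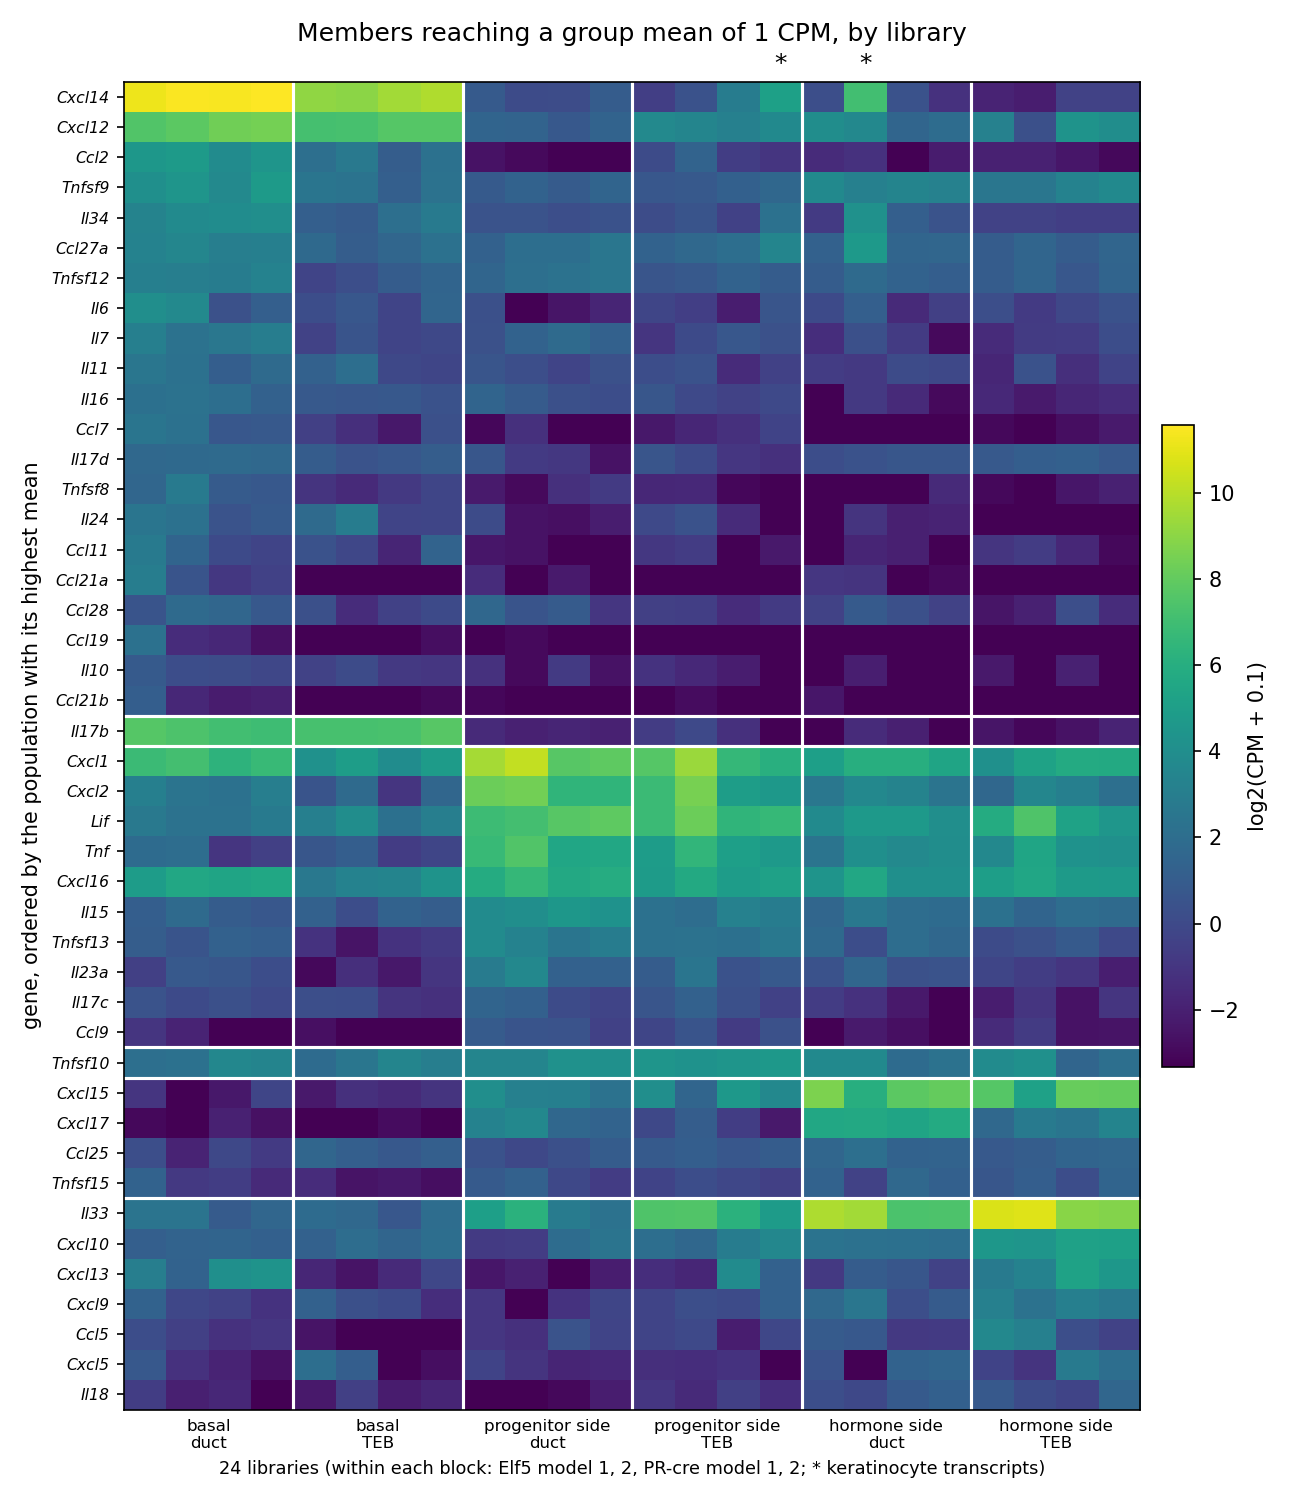
Level of the 44 members that reached 1 CPM in a group, as log2(CPM + 0.1), in 24 libraries (columns, grouped by class and tissue). Cxcl14 and Il17b are highest in the 8 basal libraries, Cxcl2 in the progenitor-side and Cxcl15 in the hormone-side libraries, without overlap. Cxcl1, Lif and Tnf have their highest mean in progenitor-side ducts, Il33 in hormone-side TEBs and Cxcl17 in hormone-side ducts. For these genes the libraries of different classes overlap.

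Per length of transcript, each gate had its own leading ligands. On the scale of CPM per kb, Cxcl14 stood at 1531 ± 164 in basal ducts (SD, n = 4 libraries) and made up 74.2% of the summed level of all members, with Il17b next at 228 ± 50.8 (11.1%). In basal TEBs the same pair stood at 369 ± 99.6 and 240.3 ± 41.5 CPM per kb, 52.2% and 34.0% of the sum. In progenitor-side ducts Cxcl1 led at 634 ± 499.6 CPM per kb (61.5%), then Cxcl2 at 189 ± 127 (18.3%) and Tnf at 59.6 ± 40.8. In progenitor-side TEBs Cxcl1 held 46.1% and Cxcl2 21.7%. Il33 had the highest mean on the hormone side, at 185 ± 142 CPM per kb in ducts (35.9%) and 433 ± 291 in TEBs (60.5%), before Cxcl15 at 113 ± 63.7 and 91.8 ± 52.2. In both YFP+ duct libraries the order was the opposite, and Cxcl15 (109 and 127 CPM per kb) was above Il33 (62.7 and 65.7). The summed level of all members was 2062 ± 139.7 CPM per kb in basal ducts and between 515 ± 172 and 1031 ± 677 in the other class and tissue groups.

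Gate differences were counted over the 82 members with edgeR's quasi-likelihood test (adjusted p under 0.05 over 18109 genes). Between basal and progenitor-side ducts, 19 members were higher in basal cells and 12 lower, where 26.8% and 26.6% of all genes tested were called. Against hormone-side ducts, 20 members were higher in basal cells and 10 lower (31.3% and 28.9% of all genes). Between the luminal classes of ducts, 14 members were higher on the progenitor side and 14 lower (22.3% and 21.9% of all genes). Without the libraries with keratinocyte transcripts the latter count was 14 and 8. In TEBs, 8 members were higher in basal than in progenitor-side cells and 18 lower (22.3% and 24.6% of all genes). Against hormone-side TEBs, 13 were higher in basal cells and 20 lower (30.1% and 27.5% of all genes). Between the luminal classes of TEBs, 11 were higher on the progenitor side and 10 lower (22.4% and 20.5% of all genes). Without the libraries with keratinocyte transcripts, basal ducts had 22 higher and 11 lower against the progenitor side. Against hormone-side ducts the counts were 22 and 9. In TEBs the basal counts were then 7 and 18 against the progenitor side and 13 and 20 against the hormone side. Between the luminal classes of TEBs they were 10 and 8. The percentages are over the 18109 genes tested, whereas 27 of the 82 members were not tested and could not be called, so the members' counts are not shares on the same footing.

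The neutrophil-attracting CXC chemokines Cxcl5, Cxcl15, Cxcl1 and Cxcl2 lie in a cluster on chromosome 5 (GRCm38, from 90759298 to 90905938) and were highest in different gates. Cxcl1, a ligand of CXCR2, stood at 765, 1209.9, 212 and 235 CPM in progenitor-side ducts and at 201, 656, 95.8 and 68.2 in progenitor-side TEBs. Basal ducts had 113, 142, 78.3 and 105 CPM, basal TEBs 18.3, 31.5, 15.2 and 28.9, hormone-side ducts 33.5, 65.2, 64.2 and 40.9 and hormone-side TEBs 17.5, 38.9, 56.2 and 53.5. The progenitor-side ducts lay above all other duct libraries, and the Elf5-model libraries above the PR-cre-model ones. The progenitor side exceeded the basal gate in ducts (basal minus progenitor side log2 -2.30 ± 0.60 SE, adjusted p = 0.00329) and the hormone side (log2 3.34 ± 0.63 SE, adjusted p = 0.000251). In basal cells Cxcl1 fell in TEBs, with no overlap between the tissues (log2 -2.19 ± 0.59 SE, adjusted p = 0.00656). On the progenitor side the ranges of the tissues overlapped and the change was not called (log2 -1.26, adjusted p = 0.119).

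Cxcl2, a second CXCR2 ligand, followed Cxcl1 at lower levels. It stood at 307, 338, 86.7 and 85.96 CPM in progenitor-side ducts and 115, 373, 31.3 and 24.998 in progenitor-side TEBs. The other classes were lower, between 4.66 and 8.64 CPM in basal ducts, between 0.394 and 3.39 in basal TEBs and between 2.998 and 12.5 on the hormone side. Progenitor-side libraries did not overlap with any other class. The difference was 25.2-fold against basal ducts (basal minus progenitor side log2 -4.66 ± 0.75 SE, adjusted p = 3.06e-05) and 20.04-fold against hormone-side ducts (log2 4.32 ± 0.73 SE, adjusted p = 8.07e-05). The basal TEB change was called near the threshold (log2 -1.82 ± 0.71 SE, adjusted p = 0.0491), and leaving out any of 18 libraries ended that call (adjusted p up to 0.164). The highest TEB library for Cxcl1, Cxcl2, Lif and Tnf was in each case luminal GFP+ replicate 2.

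Cxcl15, a neutrophil chemokine first described in lung epithelium, was a hormone-side transcript. Its values were 395, 66.01, 231 and 270.1 CPM in hormone-side ducts and 198, 37.6, 279.6 and 266 in hormone-side TEBs. GFP- replicate 2 was the lowest library of both tissues. The progenitor side had between 2.85 and 24.1 CPM and the basal gate at most 0.751 CPM. Ducts of the hormone side exceeded those of the progenitor side 23.9-fold (progenitor minus hormone side log2 -4.58 ± 0.73 SE, adjusted p = 4.19e-05), and TEBs did so 13.8-fold (log2 -3.78 ± 0.70 SE, adjusted p = 0.000212). No TEB change was called in any class. Cxcl5, of the same cluster, was highest in YFP+ TEBs, at 6.91 and 4.08 CPM, against 0.692 and 0.372 CPM in GFP- TEBs. Basal TEBs had 4.02, 2.05, 0 and 0.0486 CPM of Cxcl5.

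Cxcl9, Cxcl10 and Cxcl13, which attract T cells (Cxcl9 and Cxcl10) or B cells (Cxcl13), were highest in hormone-side TEBs. Cxcl10 stood at 23.99, 22.2, 36.3 and 35.8 CPM there and at 4.93, 4.63, 4.51 and 4.14 CPM in hormone-side ducts, with no overlap. Progenitor-side ducts had 0.489, 0.538, 3.75 and 5.24 CPM and progenitor-side TEBs 4.17, 3.07, 7.66 and 11.8, and basal libraries between 2.21 and 4.08. The hormone-side TEBs were above every other library. Cxcl10 rose 6.06-fold in hormone-side TEBs (log2 2.60 ± 0.46 SE, adjusted p = 0.000802). On the progenitor side the rise was called (log2 1.55 ± 0.46 SE, adjusted p = 0.0160) but not without YFP- TEB replicate 2 (adjusted p = 0.0677), nor without GFP+ duct replicate 1 or 2 (adjusted p = 0.0580 and 0.0650). Cxcl9, a second CXCR3 ligand next to Cxcl10 on the chromosome, stood at 8.79, 4.88, 8.495 and 6.22 CPM in hormone-side TEBs and 3.16, 5.69, 1.095 and 1.86 CPM in hormone-side ducts, and its TEB change was not called (log2 1.39, adjusted p = 0.197).

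Cxcl13 changed in opposite directions in the gates. In basal ducts it stood at 8.102, 2.49, 17.01 and 20.5 CPM and in basal TEBs at 0.1996, 0.0742, 0.236 and 0.802 CPM. In hormone-side ducts it stood at 0.448, 1.96, 1.47 and 0.6598 CPM and in hormone-side TEBs at 6.84, 9.82, 38.9 and 23.7 CPM. Neither pair of ranges overlapped. Progenitor-side ducts had at most 0.158 CPM, and progenitor-side TEBs had 0.289, 0.203, 14.5 and 2.3996 CPM, where YFP- replicate 1 was far above the rest. Cxcl13 fell in basal TEBs (log2 -5.20 ± 1.00 SE, adjusted p = 0.000389) and rose in TEBs on the progenitor side (log2 4.74 ± 1.14 SE, adjusted p = 0.00439) and the hormone side (log2 3.59 ± 0.91 SE, adjusted p = 0.0102). The TEB effect of basal cells differed from that of the hormone side (log2 difference -8.80, adjusted p = 0.000152) and from that of the progenitor side (-9.95, adjusted p = 0.000171).

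Cxcl12, the ligand of CXCR4, was highest in the basal gate. In ducts, 11 of 12 fibroblast markers were also higher there than on either luminal side (26.8% and 31.3% of all genes). The part of fibroblasts in these values was not tested. Cxcl12 stood at 185, 225, 327 and 349 CPM in basal ducts and 147, 150.4, 202 and 203 in basal TEBs. The PR-cre model was above the Elf5 model in both tissues. Progenitor-side ducts had 2.69, 2.596, 1.62 and 2.62 CPM and progenitor-side TEBs 12.8, 10.8, 9.005 and 13.4 CPM, while the hormone side had 16.04, 12.4, 2.76 and 3.75 CPM in ducts and 9.25, 1.14, 20.4 and 15.4 in TEBs. Basal ducts exceeded progenitor-side ducts 112-fold (log2 6.81 ± 0.72 SE, adjusted p = 1.71e-07) and hormone-side ducts 29.9-fold (log2 4.90 ± 0.66 SE, adjusted p = 2.88e-06). The basal TEB change was not called (log2 -0.62, adjusted p = 0.402). On the progenitor side Cxcl12 rose 4.82-fold in TEBs, with no overlap (log2 2.27 ± 0.61 SE, adjusted p = 0.00973).

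Cxcl14, a chemokine of epithelia without an agreed receptor, was the most abundant member in CPM and per kb. Basal ducts had 2378, 2930.3, 2807 and 3070.4 CPM and basal TEBs 545, 511, 743 and 901 CPM. The tissues did not overlap, yet the TEB change was not called (log2 -2.09 ± 1.28 SE, adjusted p = 0.216), and it was called without the libraries with keratinocyte transcripts (log2 -2.12, adjusted p = 0.00141). Luminal libraries had at most 1.94 CPM in progenitor-side ducts and 0.682 CPM in hormone-side TEBs. The 4 values were 1.12, 137, 1.27 and 0.3299 CPM in hormone-side ducts and 0.579, 1.26, 7.69 and 34.9 CPM in progenitor-side TEBs. In both sets the high library is the one with keratinocyte transcripts. Between the luminal classes of ducts the sign of the Cxcl14 difference turned without those libraries (from log2 -4.80 to 0.74, adjusted p = 0.0162 and 0.372). The basal excess in ducts held either way (basal minus progenitor side log2 10.92 ± 1.89 SE, adjusted p = 7.19e-05, and log2 10.96 without them).

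Cxcl16, a membrane-bound ligand of CXCR6, was present in every library. Basal ducts had 30.4, 48.2, 41.8 and 46.3 CPM and basal TEBs 6.19, 9.65, 10.4 and 20.3. Progenitor-side values were 58.3, 97.5, 50.7 and 59.7 CPM in ducts and 29.4, 52.9, 29.7 and 36.3 in TEBs, and hormone-side values 20.5, 48.3, 17.3 and 16.8 and 32.6, 45.1, 27.6 and 26.5. Cxcl16 fell in basal TEBs, with no overlap (log2 -1.82 ± 0.36 SE, adjusted p = 0.000565), and was not called on the progenitor side (adjusted p = 0.0911) or the hormone side (adjusted p = 0.509). The basal effect differed from that of the hormone side (log2 difference -2.19, adjusted p = 0.00470). Its difference from the progenitor side was not called (-0.98, adjusted p = 0.214). Cxcl17, a mucosal chemokine, belonged to the luminal gates. It stood at 49.4, 50.2, 41.4 and 54.8 CPM in hormone-side ducts and 3.18, 6.74, 5.502 and 10.3 CPM in hormone-side TEBs. Progenitor-side ducts had 9.67, 12.5, 2.998 and 2.55 CPM and progenitor-side TEBs 0.8294, 2.01, 0.553 and 0.105, and basal libraries at most 0.154 CPM. Every TEB library was below every duct library of its luminal class. Cxcl17 fell on the hormone side (log2 -2.86 ± 0.59 SE, adjusted p = 0.00257) and on the progenitor side (log2 -2.95 ± 0.61 SE, adjusted p = 0.00145). The spans of Cxcl16, Cxcl17 and Cxcl10 overlap those of other genes, as do those of Tnfsf9, Il11 and Il18, given below. Reads that fall in such an overlap cannot be assigned by strand, since the library kit does not mark it.

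**Figure D2:**
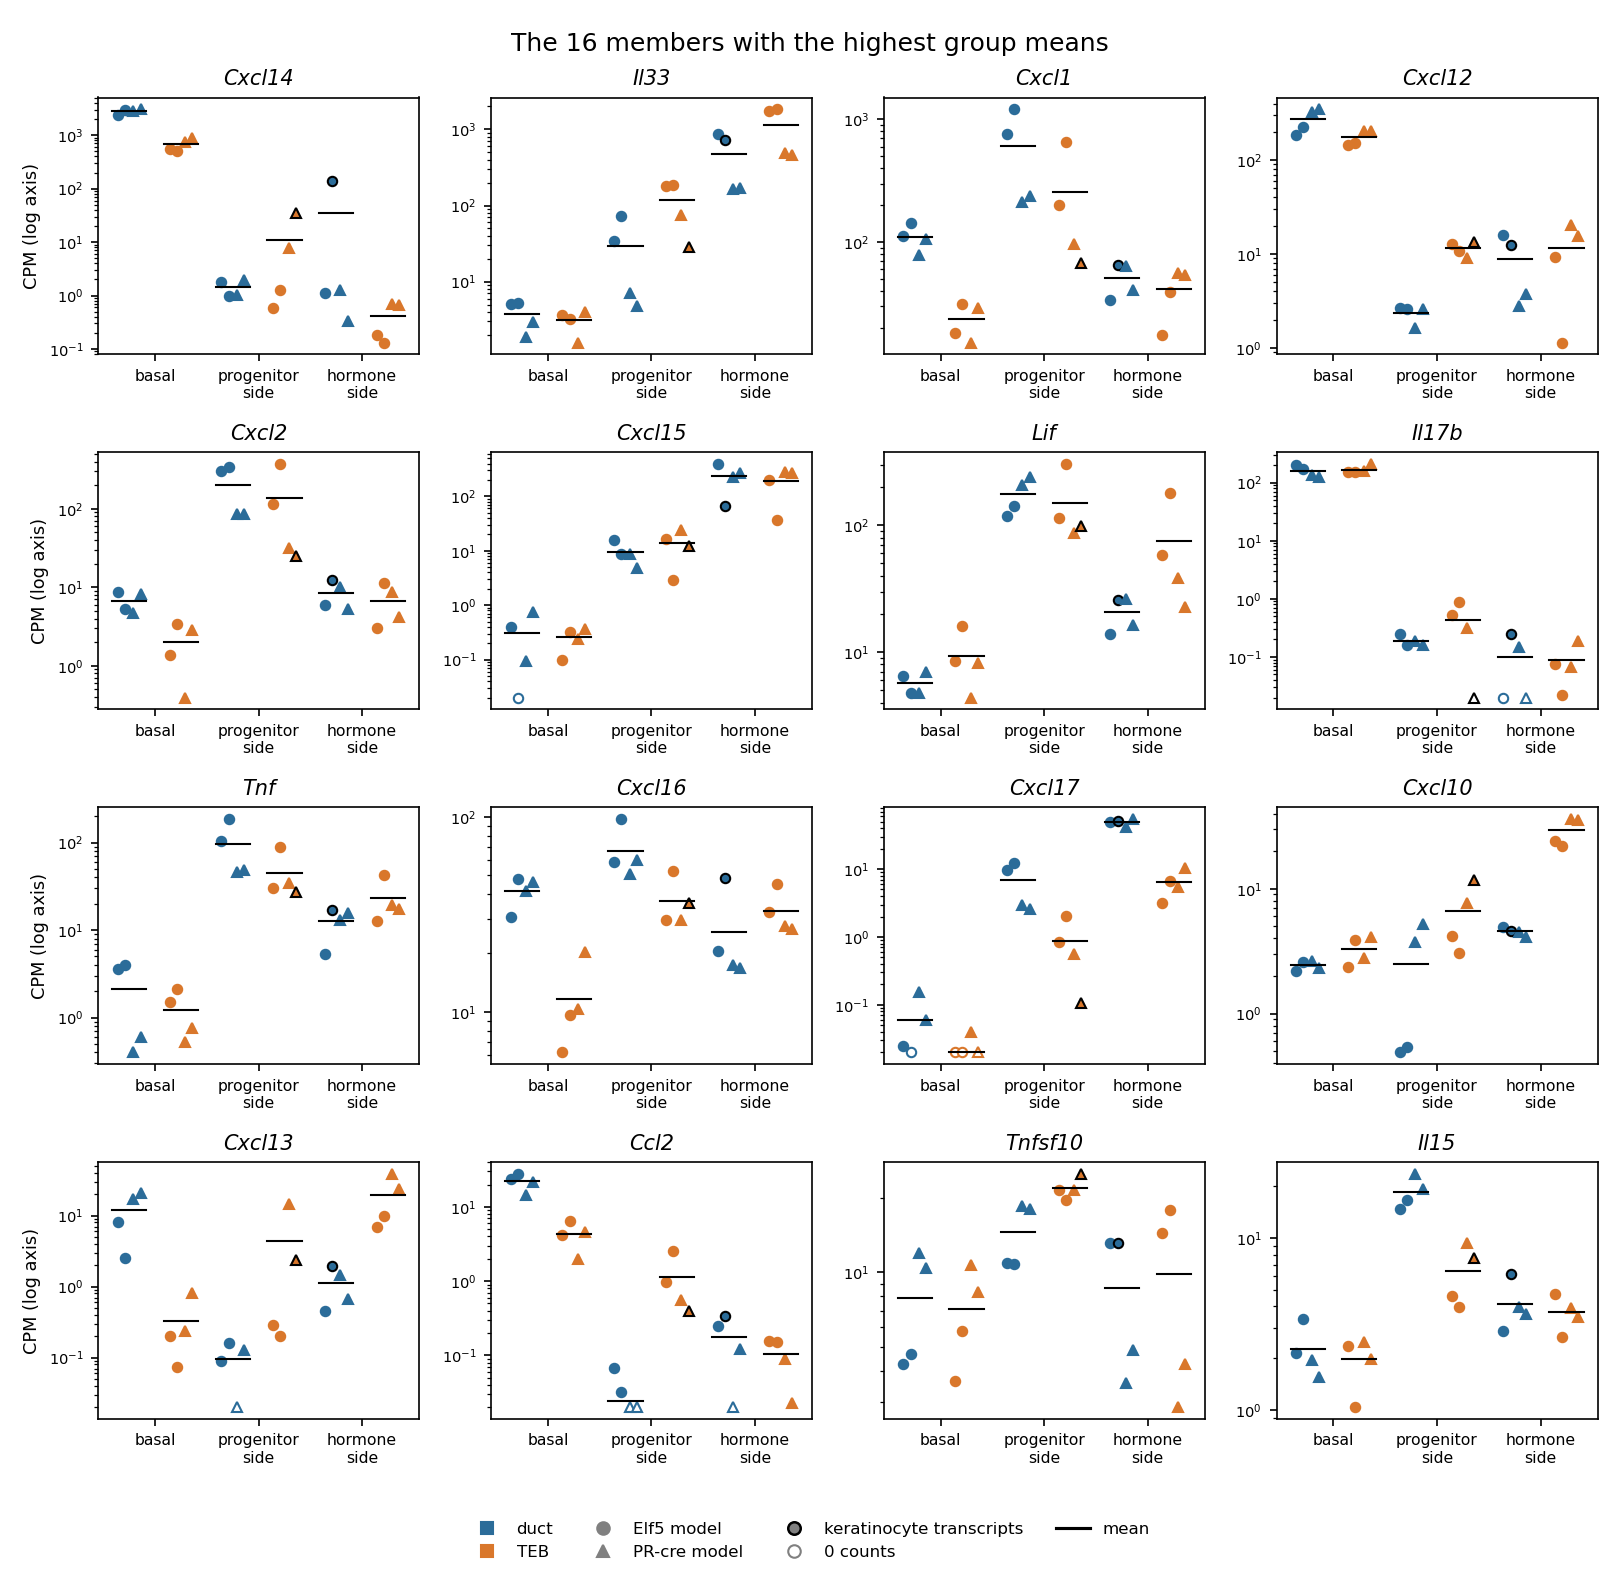
CPM (log axis) of 16 members in 24 libraries, 4 for each class and tissue, with blue for ducts, orange for TEBs and a bar at the mean. Circles are the Elf5 model, triangles the PR-cre model, black outlines the libraries with keratinocyte transcripts and open symbols libraries with 0 counts, drawn at the floor of the panel. The 4 hormone-side TEBs lie above all other libraries for Cxcl10 (22.2 to 36.3 CPM).

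Among CC chemokines, Ccl2, the monocyte chemokine that binds CCR2, was the most abundant and was highest in the basal gate. Basal ducts had 23.7, 27.98, 14.4 and 21.9 CPM and basal TEBs 4.19, 6.48, 1.97 and 4.62 CPM, with no overlap. Progenitor-side TEBs had 0.964, 2.56, 0.553 and 0.396 CPM, while progenitor-side ducts had 0.0667, 0.0317, 0 and 0 CPM, which is 3 counts or fewer in each library. Hormone-side libraries had at most 0.336 CPM. Ccl2 fell 5.25-fold in basal TEBs (log2 -2.39 ± 0.46 SE, adjusted p = 0.000361), rose on the progenitor side from near 0 (adjusted p = 2.23e-05) and was not called on the hormone side (adjusted p = 0.520). The TEB effects of basal and progenitor-side cells differed (adjusted p = 5.90e-06), as did those of the luminal classes (adjusted p = 0.00143). Its neighbours on chromosome 11, Ccl7 and Ccl11, ligands that attract monocytes and eosinophils, were also highest in basal ducts. Ccl7 stood there at 5.35, 4.65, 1.57 and 1.68 CPM and Ccl11, or eotaxin, at 7.05, 2.67, 0.926 and 0.721 CPM, in both cases with the Elf5 model above the PR-cre model, and neither had a called change in basal TEBs (adjusted p = 0.0650 and 0.758).

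Ccl5, a T cell chemokine, was highest in hormone-side TEBs of the Elf5 model. Its values were 12.1, 8.75, 1.08 and 0.669 CPM in hormone-side TEBs and 1.82, 1.598, 0.448 and 0.4799 CPM in hormone-side ducts. The GFP- TEB libraries stood apart from the YFP+ ones, and the TEB change was not called (log2 2.13, adjusted p = 0.0579). Basal ducts had 1.06, 0.608, 0.3395 and 0.421 CPM and basal TEBs 0.0748, 0, 0 and 0, at most 3 counts in a library, and the fall was called (adjusted p = 0.000781). The progenitor side had between 0.128 and 1.32 CPM. Ccl27a, a skin chemokine that binds CCR10, stood at 9.75, 11.5, 8.303 and 8.53 CPM in basal ducts and 3.29, 2.03, 2.88 and 4.69 in basal TEBs. Its fall in basal TEBs was not called (log2 -1.56, adjusted p = 0.0598) and was called without the keratinocyte-transcript libraries (log2 -1.60, adjusted p = 9.25e-05). Those libraries held its highest luminal values, 26.8 and 10.9 CPM, where other luminal libraries had at most 5.59 CPM. The hormone-side change in Ccl27a (adjusted p = 0.0497) was not called without them (adjusted p = 0.746), nor in 20 of 24 fits with 1 library left out. Ccl27a overlaps Il11ra1, so their reads cannot be fully separated.

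Ccl19 and Ccl21a, the CCR7 ligands of lymphoid stroma, and Ccl21b were seen almost only in basal Elf5-model duct replicate 1, at 4.71, 7.95 and 2.11 CPM. The next highest library of any kind had 0.273, 1.34 and 0.213 CPM. That library also had the highest Ptprc (7.54 CPM) and Pecam1 (28.9 CPM), markers of leukocytes and endothelium. Their part in these values was not tested. Ccl21a, Ccl21b and Ccl21d are near-identical copies, so their counts are uncertain. Ccl21a had 0 counts in all 12 TEB libraries. Ccl25, which binds CCR9, was the member that rose in basal TEBs, from 1.08, 0.182, 0.833 and 0.481 to 2.94, 2.18, 1.62 and 2.14 CPM (log2 1.77 ± 0.41 SE, adjusted p = 0.00175), though hormone-side ducts were higher at 2.88, 4.29, 2.46 and 2.61 CPM. Ccl28 and Ccl9 stayed at or under 3.49 CPM in all libraries, Ccl28 highest in basal ducts and Ccl9 in progenitor-side ducts.

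Among the interleukins, Il33, a nuclear alarmin of barrier epithelia, had the hormone side's highest mean per length, though in YFP+ ducts Cxcl15 was above it. It stood at 869, 725, 163 and 171 CPM in hormone-side ducts and 1721, 1843, 492 and 455 in hormone-side TEBs. In each tissue both GFP- libraries were above both YFP+ libraries. Progenitor-side ducts had 34.3, 72.3, 7.16 and 4.75 CPM, progenitor-side TEBs 181, 183, 74.7 and 28.5 CPM and basal libraries between 1.58 and 5.16 CPM. All hormone-side duct libraries exceeded all other duct libraries. The hormone side exceeded the progenitor side 18.5-fold in ducts (progenitor minus hormone side log2 -4.21 ± 0.48 SE, adjusted p = 8.94e-07) and 9.48-fold in TEBs (log2 -3.25 ± 0.46 SE, adjusted p = 1.26e-05). Il33 rose in progenitor-side TEBs (log2 2.28 ± 0.45 SE, adjusted p = 0.000936), and this effect differed from that in basal cells (log2 difference -2.35, adjusted p = 0.0181), where no change was called (log2 -0.07, adjusted p = 0.929). The hormone-side rise was called (log2 1.32 ± 0.43 SE, adjusted p = 0.0403), but in 9 of 24 fits with 1 library left out it was not (adjusted p up to 0.0952), nor without the keratinocyte-transcript libraries (adjusted p = 0.0656). Within each reporter, every hormone-side TEB library was above every duct library.

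Il17b, an interleukin 17 family ligand that binds IL17RB, exceeded 1 CPM in the 8 basal libraries and in no luminal library. It stood at 200.1, 173, 134 and 124 CPM in basal ducts and 149.8, 150.4, 156 and 209 in basal TEBs, with overlapping ranges. Luminal libraries had at most 0.895 CPM. No TEB change was called in basal cells (log2 0.12, adjusted p = 0.833), while the basal excess over progenitor-side ducts was 804-fold (log2 9.65 ± 0.60 SE, adjusted p = 8.82e-11). Of its relatives, Il17d was highest in basal ducts at 3.12, 3.37, 3.49 and 3.18 CPM and Il17c, an epithelial cytokine, in progenitor-side ducts at 2.64, 2.25, 0.972 and 0.744 CPM.

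Lif, the leukaemia inhibitory factor, had its highest mean in progenitor-side ducts. Its values were 117, 141, 208 and 241 CPM in progenitor-side ducts and 113, 303, 87.1 and 99.5 in progenitor-side TEBs. Hormone-side ducts had 13.9, 25.8, 26.2 and 16.3 CPM and hormone-side TEBs 57.8, 179, 38.1 and 22.8, and basal libraries between 4.39 and 16.1 CPM. Every progenitor-side duct library was above every other duct library, whereas in TEBs the ranges of the luminal classes overlapped. The progenitor side exceeded basal ducts 32.2-fold (basal minus progenitor side log2 -5.01 ± 0.59 SE, adjusted p = 7.08e-07) and hormone-side ducts 8.97-fold (log2 3.16 ± 0.54 SE, adjusted p = 8.46e-05). Lif rose in hormone-side TEBs (log2 1.69 ± 0.52 SE, adjusted p = 0.0296), a call lost in 4 of 24 fits with 1 library left out (adjusted p up to 0.177) and without the keratinocyte-transcript libraries (adjusted p = 0.0777).

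Il6 and Il11, which like Lif signal through gp130, were highest in basal ducts. Il6 stood at 16.7, 12.7, 1.204 and 2.22 CPM there, high in the Elf5 model and low in the PR-cre model, and at 1.05, 1.56, 0.749 and 2.79 CPM in basal TEBs. Luminal libraries had at most 2.16 CPM. The TEB change was not called (log2 -1.95, adjusted p = 0.113), and the gap between the models was not tested. The span of Il6 overlaps that of another gene model, and reads in the overlap cannot be assigned by strand. Basal ducts exceeded progenitor-side ducts (log2 4.34 ± 1.01 SE, adjusted p = 0.00120) and hormone-side ducts (log2 2.92 ± 0.94 SE, adjusted p = 0.0111). Il11 stood at 5.65, 4.59, 2.13 and 3.51 CPM in basal ducts and 2.395, 4.01, 0.828 and 0.753 in basal TEBs.

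Il15, which is presented on its receptor to natural killer cells, was a progenitor-side transcript that fell in TEBs. It stood at 14.8, 16.7, 23.6 and 19.2 CPM in progenitor-side ducts and 4.63, 3.97, 9.35 and 7.67 in progenitor-side TEBs, without overlap. Other classes had between 1.04 and 6.14 CPM. Il15 was 2.93-fold lower in progenitor-side TEBs (log2 -1.55 ± 0.32 SE, adjusted p = 0.00130), and no TEB change was called in the other classes (adjusted p = 0.628 in basal and 0.763 in hormone-side cells). Progenitor-side ducts exceeded basal ducts 8.04-fold (basal minus progenitor side log2 -3.01 ± 0.34 SE, adjusted p = 2.95e-07). Il7, a lymphocyte survival factor, was highest in basal ducts, at 8.49, 4.83, 6.02 and 7.81 CPM, and fell to 0.674, 1.39, 0.749 and 0.826 CPM in basal TEBs (log2 -2.89 ± 0.63 SE, adjusted p = 0.00105).

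Il34, a ligand of the macrophage receptor CSF1R, stood at 10.1, 14.005, 14.9 and 16.5 CPM in basal ducts and 2.195, 1.88, 4.22 and 7.04 in basal TEBs, without overlap. Its fall in basal TEBs was not called (log2 -1.87, adjusted p = 0.0690) but was called without the keratinocyte-transcript libraries (log2 -1.93, adjusted p = 0.000508). GFP- duct replicate 2 alone had 18.2 CPM, where other luminal libraries had at most 4.61. Without the pair of libraries with keratinocyte transcripts, the hormone-side TEB change (log2 -3.19, adjusted p = 0.0141) was not called (adjusted p = 0.160). Il23a, the p19 subunit of interleukin 23, was highest in progenitor-side ducts, at 7.29, 12.3, 2.38 and 2.42 CPM, with the Elf5 model above the PR-cre model. Basal ducts had 0.614, 1.67, 1.51 and 1.05 CPM and basal TEBs 0.0249, 0.297, 0.0985 and 0.389 CPM, and this fall was called (log2 -2.56 ± 0.66 SE, adjusted p = 0.00419). The hormone side had 1.23, 2.89, 1.22 and 1.29 CPM in ducts and 0.769, 0.547, 0.396 and 0.138 in TEBs, a fall (log2 -1.90 ± 0.62 SE, adjusted p = 0.0392) that was not called without the keratinocyte-transcript libraries (adjusted p = 0.104), nor in 7 of 24 fits with 1 library left out. Il12b, which encodes the partner subunit of interleukin 23, stayed under 1 CPM in every group.

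Il24, Il10, Il16 and Il18 were lower. Il24, an interleukin 10 family member, stood at 5.38, 4.56, 1.33 and 1.77 CPM in basal ducts and 3.52, 7.57, 0.749 and 0.777 in basal TEBs, with the Elf5 model above the PR-cre model, and had 0 counts in all 4 hormone-side TEB libraries. Il16 was highest in basal ducts at 4.42, 4.7999, 4.07 and 2.403 CPM and at most 0.449 CPM on the hormone side. Il18, an interleukin 1 family cytokine that needs cleavage to act, was the hormone side's, at 1.09, 0.841, 1.79 and 2.31 CPM in ducts and 1.67, 0.9404, 0.748 and 2.95 in TEBs. Il10 reached 1.77 CPM in basal ducts.

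Among the TNF ligands, Tnf itself was highest on the progenitor side. It stood at 105, 186, 45.99 and 47.98 CPM in progenitor-side ducts and 30.4, 89.03, 34.6 and 27.002 in progenitor-side TEBs. Hormone-side ducts had 5.29, 16.96, 13.1 and 15.9 CPM and hormone-side TEBs 12.6, 42.8, 19.2 and 17.5, and basal ducts 3.61, 3.98, 0.401 and 0.601 and basal TEBs 1.497, 2.103, 0.532 and 0.753. The progenitor-side ducts were above all other ducts, and the basal libraries below all luminal ones. In TEBs the ranges of the luminal classes overlapped. The progenitor side exceeded basal ducts 47.9-fold (basal minus progenitor side log2 -5.58 ± 0.62 SE, adjusted p = 3.36e-07) and hormone-side ducts 5.89-fold (log2 2.56 ± 0.54 SE, adjusted p = 0.000726). No TEB change was called in any class (adjusted p = 0.381, 0.174 and 0.393 in basal, progenitor-side and hormone-side cells).

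Tnfsf9, the ligand of the costimulatory receptor 4-1BB, stood at 17.3, 21.9, 12.6 and 28.2 CPM in basal ducts and 5.51, 5.097, 2.19 and 4.76 in basal TEBs. Hormone-side ducts had 13.2, 8.97, 10.3 and 9.09 CPM and hormone-side TEBs 5.69, 5.71, 9.79 and 13.3, and the progenitor side between 1.52 and 3.11. Tnfsf9 fell 4.497-fold in basal TEBs, with no overlap (log2 -2.17 ± 0.33 SE, adjusted p = 3.29e-05). This effect differed from that on the progenitor side (log2 difference -2.13, adjusted p = 0.00360) and the hormone side (-1.87, adjusted p = 0.00675). Tnfsf12, or TWEAK, stood at 8.52, 8.08, 7.56 and 9.49 CPM in basal ducts and 0.748, 1.09, 1.93 and 2.696 in basal TEBs. It fell in basal TEBs (log2 -2.44 ± 0.33 SE, adjusted p = 7.88e-06) and on the progenitor side, from 2.78, 4.21, 4.86 and 5.72 to 1.43, 1.71, 2.45 and 1.95 CPM (log2 -1.21 ± 0.32 SE, adjusted p = 0.00730). Hormone-side libraries had between 1.54 and 3.39 CPM, and the basal effect differed from theirs (log2 difference -2.32, adjusted p = 0.00106).

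Tnfsf13, or APRIL, a B cell survival factor, lies beside Tnfsf12 on chromosome 11 and was highest in a different gate. Progenitor-side ducts had 14.6, 9.499, 5.43 and 7.47 CPM and progenitor-side TEBs 4.57, 4.76, 4.47 and 6.04. Basal ducts had 1.99, 1.37, 2.35 and 2.07 CPM and basal TEBs 0.349, 0.0742, 0.355 and 0.486, a called fall (log2 -2.62 ± 0.45 SE, adjusted p = 0.000115). The hormone-side fall, from 3.36, 1.04, 3.96 and 3.03 to 0.974, 1.203, 1.76 and 0.876 CPM, was called (log2 -1.22 ± 0.42 SE, adjusted p = 0.0469) but lost in 20 of 24 fits with 1 library left out (adjusted p up to 0.125). Reads of Tnfsf12 and Tnfsf13 can be shared with overlapping gene models of the locus. Tnfsf10, or TRAIL, a death receptor ligand, was highest in progenitor-side TEBs, at 21.5, 19.5, 21.6 and 24.998 CPM against 10.96, 10.8, 18.5 and 17.98 in progenitor-side ducts, and had no called TEB change in any class (adjusted p = 0.873, 0.461 and 0.867). In hormone-side TEBs it stood at 14.4, 17.8, 2.86 and 4.26 CPM, high with GFP- and low with YFP+. Tnfsf8, the CD30 ligand, was highest in basal ducts at 2.897, 6.71, 1.85 and 1.65 CPM, and Tnfsf15, or TL1A, in hormone-side ducts at 2.49, 0.673, 3.16 and 2.31 CPM.

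In TEBs against ducts, most members called in the basal gate fell. Of the 82 members, 17 were lower in basal TEBs, where 19.2% of all genes tested were, and 1 was higher, where 18.2% of all genes tested were. The median over the 55 members that passed the filter on low counts was log2 -1.60, against -0.05 over all genes tested. Markers of the gate itself moved in the same libraries. The 8 basal markers summed to 27902 to 30342 CPM in basal ducts and 5833 to 12301 CPM in basal TEBs. Of these, 4 were called lower (Acta2, Myh11, Cnn1 and Oxtr, genes of contractile cells). Krt14 stood at 2986 to 3619 CPM in basal ducts and 345 to 804 CPM in basal TEBs. Krt5 stood at 2170 to 3178 and 633 to 785 CPM. Neither keratin was called. The 6 luminal markers summed to 744 to 918 CPM in basal ducts and 387 to 613 CPM in basal TEBs, with 0 higher and 4 lower. The 6 progenitor-side markers summed to 23.9 to 99.7 CPM in basal ducts and 267 to 1017 CPM in basal TEBs, with Csn3 and Kit higher and Cd14 and Lalba lower. Their part in the members' values was not tested. Without the libraries with keratinocyte transcripts 22 were lower and 1 higher. The members that fell in basal TEBs were Cxcl1, Cxcl2, Cxcl13, Cxcl16, Ccl2, Ccl5, Ccl21a, Ccl9, Il7, Il23a, Tnfsf8, Tnfsf9, Tnfsf12, Tnfsf13 and Tnfsf15, with Ccl20 and Il1b among the members under 1 CPM, and Ccl25 rose. Ccl21a had few counts in luminal ducts (at most 0.4198 CPM) and none in TEBs. On the progenitor side 6 members were higher in TEBs and 6 lower (7 and 4 without the keratinocyte-transcript libraries). Of all genes, 13.7% and 11.4% were called. Cxcl10, Cxcl12, Cxcl13, Ccl2, Il18 and Il33 rose, and Cxcl17, Il15, Tnfsf12, Ccl21a, Ccl22 and Il1b fell. In the same contrast 3 of 12 fibroblast markers were higher (Col3a1, Dpt and Fbln1) and 1 lower, with a list median of log2 1.54, and 2 of 14 endothelial and pericyte markers were higher (Pdgfrb and Kcnj8). Their part in the members' rise was not tested. On the hormone side 4 were higher (Cxcl10, Cxcl13, Il33, Lif) and 8 lower, where 9.43% and 8.71% of all genes were called. The 8 were Cxcl14, Cxcl17, Il23a, Il24, Il34, Ccl21a, Ccl27a and Tnfsf13. Without the keratinocyte-transcript libraries 2 were higher and 3 lower. The hormone-side total of 12 was 4 without GFP- TEB replicate 2, 5 without GFP- TEB replicate 1 or without GFP- duct replicate 2, and 7 without YFP+ duct replicate 2.

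**Figure D3:**
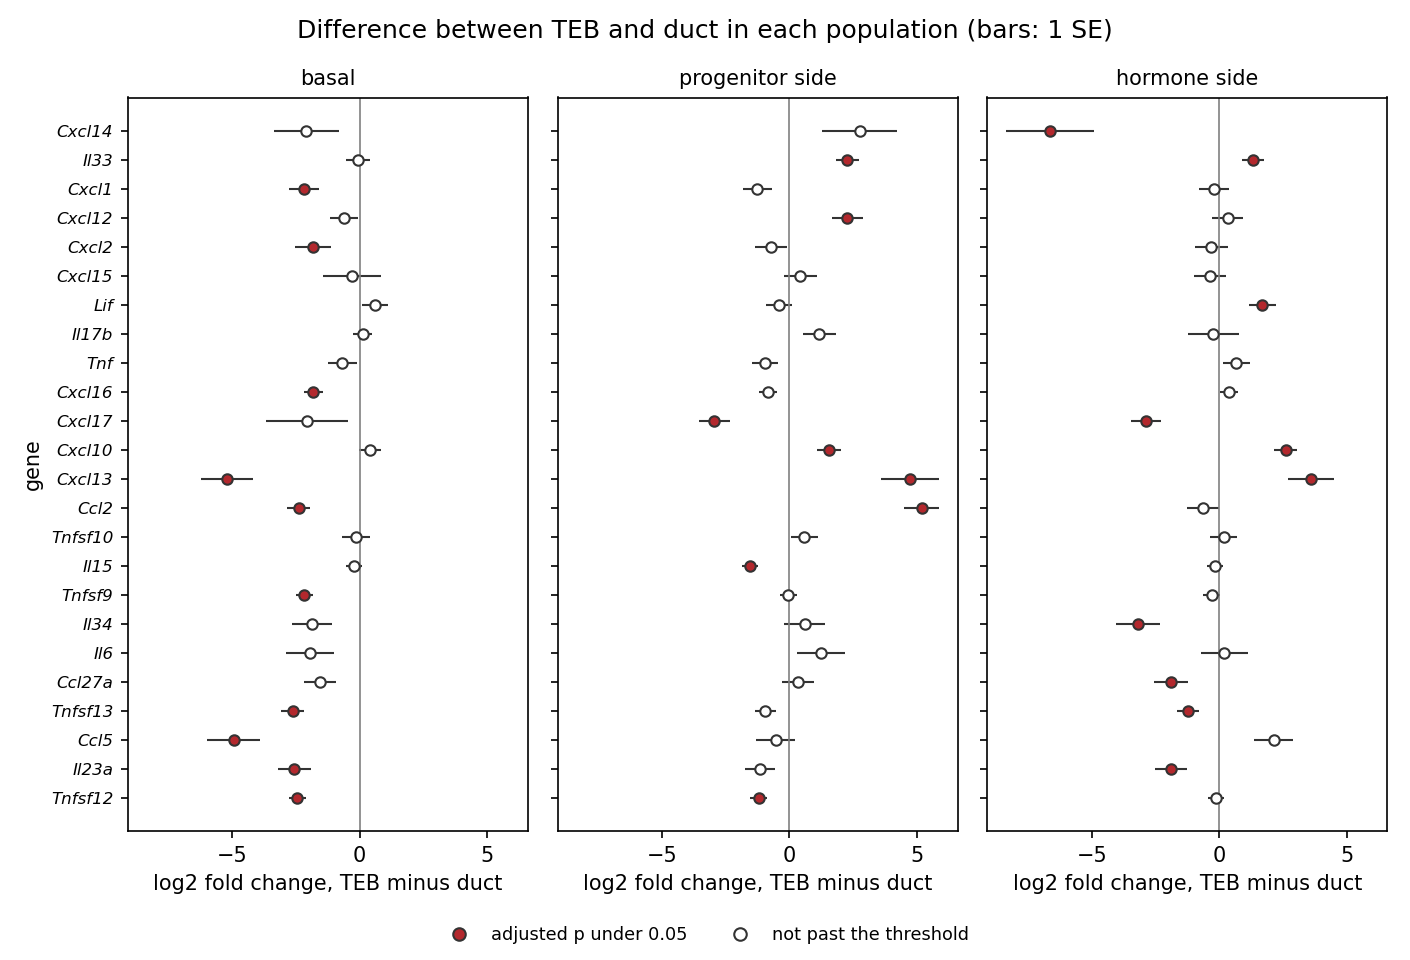
Log2 fold change of TEBs against ducts for 24 members in the basal gate, on the progenitor side and on the hormone side, from the edgeR fit. Bars are the SE derived from the F statistic, and called changes are filled. In the basal gate Cxcl13 (-5.20) and Ccl2 (-2.39) lie below 0, while on the progenitor side they lie above it (4.74 and 5.19).

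Whether the TEB change itself differed between classes was tested directly. Against the progenitor side, the basal TEB effect was higher for 0 members and lower for 8, where 5.9% and 8.29% of all genes were called. The 8 were Ccl2, Ccl5, Cxcl12, Cxcl13, Il33 and Tnfsf9, with Ccl20 and Il1a under 1 CPM. With edgeR at an unadjusted p under 0.05, 3 were higher, and with DESeq2 1 was. Against the hormone side it was higher for 2 and lower for 10 (9.05% and 11.0% of all genes). Ccl25 and Il24 were the 2, and Ccl5, Ccl7, Ccl9, Cxcl10, Cxcl13, Cxcl16, Il7, Tnfsf12, Tnfsf9 and, under 1 CPM, Cxcl3 the 10. The progenitor-side effect was higher than that of the hormone side for 3 members and lower for 0 (2.76% and 2.69% of all genes). The 3 were Ccl2, Cxcl14 and Il24. With edgeR at an unadjusted p under 0.05, 7 were lower, and with DESeq2 2 were. The count between basal and progenitor-side cells was 5 without basal Elf5-model TEB replicate 1 and 14 without basal PR-cre-model TEB replicate 2 or without GFP- duct replicate 2. Ccl5 differed between basal and progenitor-side cells (adjusted p = 0.0256), but not without YFP- TEB replicate 2 (adjusted p = 0.0701), basal Elf5-model TEB replicate 2 (0.0674) or basal PR-cre-model TEB replicate 1 (0.0553). Cxcl12 did so too (log2 difference -2.89, adjusted p = 0.0228), but not without basal Elf5-model TEB replicate 1 (0.0541) or YFP- duct replicate 1 (0.0584). A luminal difference for Cxcl14 (log2 difference 9.39, adjusted p = 0.0175) was not called without the keratinocyte-transcript libraries (2.12, adjusted p = 0.209). Without those libraries the basal effect was higher for 1 member and lower for 9 against the progenitor side. Against the hormone side these counts were 2 and 9, and between the luminal classes 2 and 1.

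The remaining 38 members stayed under 1 CPM in every group. Of these, 4 had no count in any library (Il17a, Ccl21c, Ccl26 and Ccl24). In basal Elf5-model ducts the group mean was highest for Ccl20, Tnfsf13b, Ccl27b, Ccl21d, Il12a, Il31, Il13, Il17f and Tnfsf14, in basal Elf5-model TEBs for Il19 and Il22, in basal PR-cre-model ducts for Ccl3 and in basal PR-cre-model TEBs for Ccl1. GFP+ ducts led for Tnfsf18, Ccl6, Ccl17, Il21, Il2, Ccl12, Il20 and Il3, GFP+ TEBs for Il25 and Il9, and YFP- ducts for Il1b. GFP- ducts led for Ccl22, Il1a, Il12b and Ccl4, YFP+ ducts for Il27, Ccl8 and Il5, and YFP+ TEBs for Cxcl3, Tnfsf4 and Il4. Many of these are products of T cells and myeloid cells, and 13 of the 38 had enough counts to be tested.

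Receptor genes for these ligands were read in the same libraries. Of 20 chemokine receptor genes, 13 were tested, and 4 were lower in basal TEBs than in ducts, 2 on the progenitor side and 4 on the hormone side. Of all genes tested, 19.2%, 11.4% and 8.71% were lower in these contrasts. With edgeR 0 were higher in any class, also at an unadjusted p under 0.05 and with DESeq2. The hormone-side count was between 2 and 5 in the fits with 1 library left out. Ccr7, the receptor for CCL19 and CCL21, was lower in TEBs of the basal gate (log2 -4.25, adjusted p = 0.00233). It was also lower on the progenitor side (log2 -5.01, adjusted p = 0.00267) and the hormone side (log2 -4.61, adjusted p = 0.00803). Ackr3, the scavenging receptor for CXCL12, was the most abundant, at 268, 355, 286 and 345 CPM in basal ducts and 14.05, 14.6, 35.7 and 52.5 in basal TEBs. The tissues did not overlap, and the fall was 11.05-fold (log2 -3.47 ± 0.58 SE, adjusted p = 0.000104). Progenitor-side ducts had 89.1, 89.9, 64.03 and 64.3 CPM and progenitor-side TEBs 12.7, 8.68, 23.4 and 27.5, again without overlap (log2 -2.14 ± 0.55 SE, adjusted p = 0.00746). Cxcr4, the signalling receptor for CXCL12, was highest in progenitor-side ducts at 129, 106, 62.1 and 57.2 CPM and progenitor-side TEBs at 59.2, 52.3, 42.6 and 35.1. Basal ducts had 38.3, 27.2, 49.7 and 53.1 CPM and basal TEBs 3.19, 3.86, 23.3 and 21.1 (log2 -1.83 ± 0.49 SE, adjusted p = 0.00548), while the hormone side had between 2.65 and 8.36 CPM. Cxcl12 was thus highest in basal ducts and Cxcr4 in progenitor-side ducts. Cxcr5, the receptor for CXCL13, lay between 0.495 and 3.91 CPM.

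Receptors that are typical of leukocytes were near 0. The highest library had 0.393 CPM of Cxcr2, which binds CXCL1 and CXCL2, 0.09499 of Cxcr3, 0.5302 of Cxcr6 and 0.304 of Ccr2. Csf1r, the receptor for interleukin 34, reached 1.18 CPM and Il23r 0.751 CPM.

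Of 40 interleukin and LIF receptor genes, 39 were tested, and 15 were lower and 1 higher in basal TEBs (19.2% and 18.2% of all genes). On the progenitor side 9 were lower and 2 higher (5 without GFP- duct replicate 2), where 11.4% and 13.7% of all genes were called. On the hormone side 8 were lower and 2 higher (4 and 1 without the keratinocyte-transcript libraries), where 8.71% and 9.43% of all genes were called. The hormone-side count of 8 was between 2 and 8 in the fits with 1 library left out. The 15 lower in basal TEBs included receptors typical of leukocytes. These were Il7r (log2 -7.91, adjusted p = 8.04e-05), Il21r (log2 -6.83, adjusted p = 0.0131) and Il2rg (log2 -2.51, adjusted p = 0.0207). Lifr stood at 899.8, 1161, 472 and 541 CPM in basal ducts and 99.9, 129, 153 and 184 in basal TEBs, with no overlap (log2 -2.40 ± 0.25 SE, adjusted p = 5.26e-07). The hormone side had between 295 and 333 CPM and the progenitor side, which had most Lif, between 43.2 and 85.97 CPM. The basal TEB effect of Lifr differed from that of the progenitor side (log2 difference -2.17, adjusted p = 0.000220) and the hormone side (-2.35, adjusted p = 8.16e-05). Il6st, the shared gp130 subunit, stood at 633, 709, 479 and 511 CPM in basal ducts and 189, 205, 164 and 204 in basal TEBs (log2 -1.61 ± 0.11 SE, adjusted p = 5.58e-09). Progenitor-side TEBs also had less of it than ducts (log2 -0.73 ± 0.11 SE, adjusted p = 8.31e-05).

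Il1rl1, the ST2 receptor for interleukin 33, was at most 3.48 CPM, with all libraries above 1.5 CPM among the YFP+ ones. Its partner Il1rap stood at between 1.85 and 7.35 CPM on the hormone side, where Il33 was highest, and at between 44.6 and 99.1 CPM elsewhere, with no overlap (progenitor minus hormone side in ducts log2 3.55 ± 0.27 SE, adjusted p = 3.23e-09). Il18r1, a subunit of the interleukin 18 receptor, was highest where Il18 was, at between 44.6 and 83.8 CPM on the hormone side against at most 0.4701 CPM in basal cells and 22.4 CPM on the progenitor side. Il17rb, the receptor for interleukin 17B, stood at 15.7, 16.2, 12.96 and 12.6 CPM in basal ducts and 2.15, 1.48, 1.399 and 3.11 in basal TEBs, a 6.91-fold fall without overlap (log2 -2.79 ± 0.29 SE, adjusted p = 3.52e-07), while its ligand had no called change. Il15ra was highest in progenitor-side ducts, as Il15 was, at 38.2, 38.8, 30.6 and 28.8 CPM, against between 5.43 and 13.3 CPM in the other ducts.

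Of 24 TNF receptor genes, 21 were tested, with 3 higher and 6 lower in basal TEBs, 3 and 4 on the progenitor side and 3 and 4 on the hormone side (3 and 2 without the keratinocyte-transcript libraries). Of all genes tested, 18.2% were higher and 19.2% lower in basal TEBs, 13.7% and 11.4% on the progenitor side, and 9.43% and 8.71% on the hormone side. In the fits with 1 library left out, the hormone side had between 1 and 3 higher and between 1 and 4 lower. The 3 on the progenitor side were 5 without GFP+ TEB replicate 2 or without GFP- duct replicate 2. Tnfrsf1a, the widely expressed TNF receptor, lay between 81.5 and 227 CPM. Tnfrsf1b, the second TNF receptor, was a hormone-side gene, at 15.5, 13.8, 15.4 and 19.5 CPM in ducts and 24.5, 27.4, 23.6 and 24.3 in TEBs, and at most 2.79 CPM elsewhere. Progenitor minus hormone side in ducts was log2 -3.87 ± 0.44 SE, adjusted p = 4.17e-07. Tnfrsf12a, the TWEAK receptor, lay between 79.4 and 319.9 CPM. Tnfrsf10b, the mouse TRAIL receptor, was between 11.9 and 48.2 CPM, and Tnfrsf9, which binds the Tnfsf9 product, at most 3.44 CPM.

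**Figure D4:**
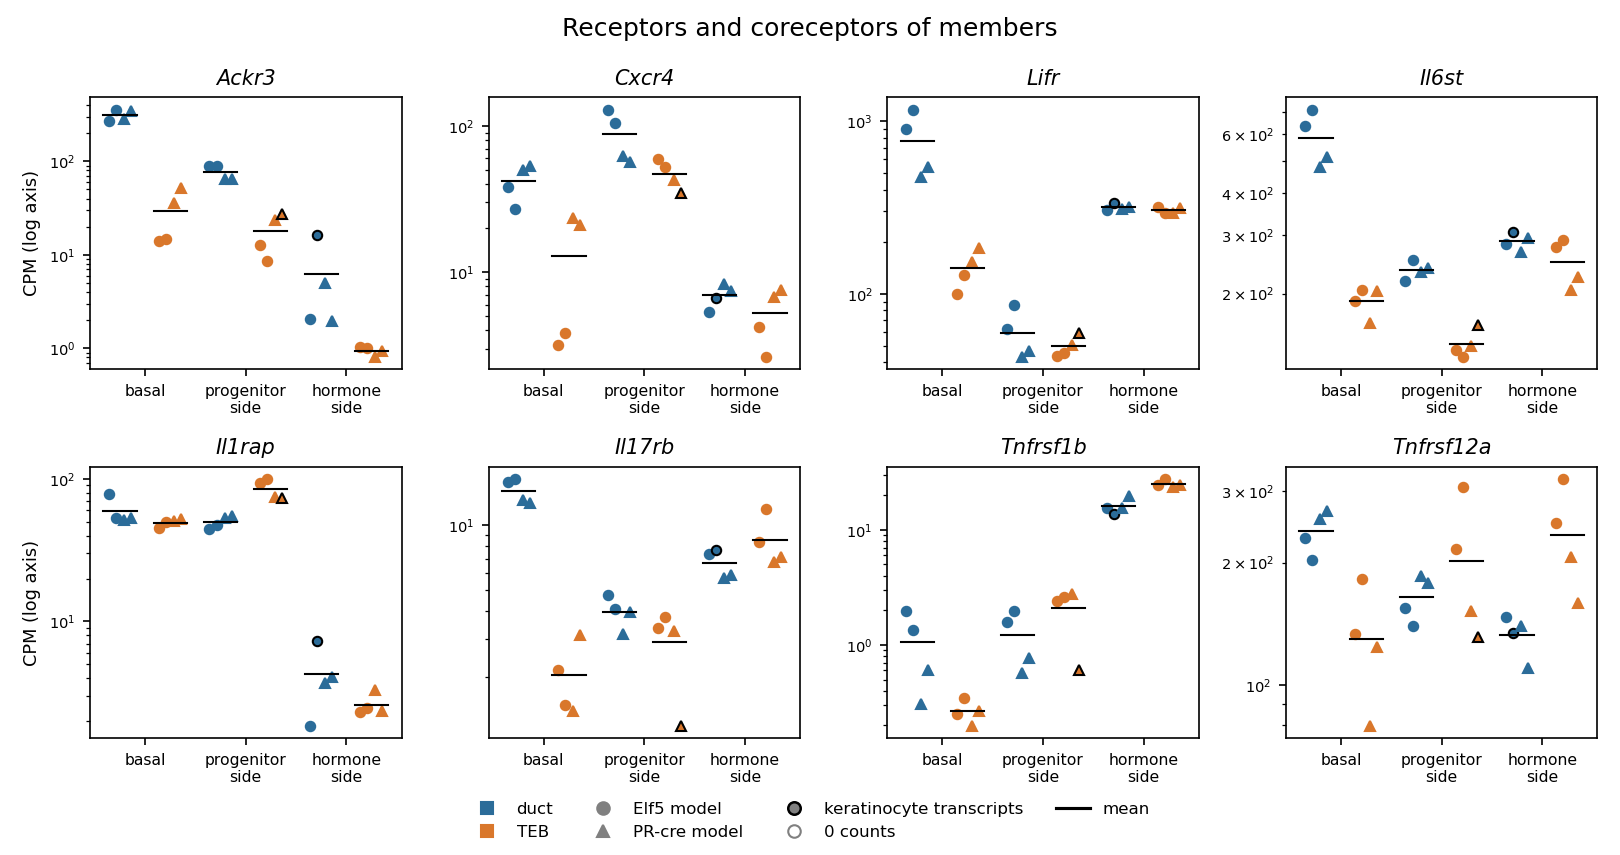
CPM (log axis) of 8 receptors or coreceptors in 24 libraries, drawn as the members were. Ackr3, Lifr, Il6st and Il17rb drop from basal ducts to basal TEBs, Cxcr4 is highest in progenitor-side ducts, and Il1rap and Tnfrsf1b separate the hormone side from the rest.

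Genes of the NF-kB and STAT3 pathways were read from lists of 20 and 8 genes, all tested. The NF-kB list holds components such as Rela, Rel and Nfkbib beside targets such as Icam1. The STAT3 list holds feedback genes such as Socs3 and Cish, and also Stat3 itself and the receptor genes Il6st and Osmr. The counts are therefore not readouts of target genes alone. Of all genes tested, 19.2%, 11.4% and 8.71% were lower in basal, progenitor-side and hormone-side TEBs. Of the NF-kB list, 16 were lower in basal TEBs (median log2 -1.41, against -0.05 over all genes). On the progenitor side 10 of the list were lower (median -0.62) and on the hormone side 1 (median -0.22). With edgeR 0 were higher in any class, at an unadjusted p under 0.05 only 1 on the hormone side, and with DESeq2 0. The basal count was 16 in each fit with 1 library left out, and the progenitor-side count was 6 without GFP+ TEB replicate 1 or without YFP- TEB replicate 1. Icam1, an adhesion molecule, stood at 1172, 1250.3, 923 and 1234 CPM in basal ducts and 229, 221, 130.5 and 278 in basal TEBs (log2 -2.41 ± 0.46 SE, adjusted p = 0.000384), and Vcam1 at 48.8, 37.002, 53.8 and 48.01 and 1.52, 2.47, 2.74 and 6.097 CPM (log2 -3.85 ± 0.58 SE, adjusted p = 2.90e-05). Tnfaip3, the A20 feedback inhibitor, was highest in progenitor-side ducts, where Tnf was, at 505, 688, 216 and 215 CPM against 107, 321, 76.5 and 108 in TEBs (log2 -1.38 ± 0.34 SE, adjusted p = 0.00556). Between the luminal classes of ducts, 10 of 20 were higher on the progenitor side and 2 lower (22.3% and 21.9% of all genes). In basal against progenitor-side ducts 2 were higher and 10 lower (26.8% and 26.6% of all genes).

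Of the STAT3 list, 6 of 8 were lower in basal TEBs (median log2 -1.27), 5 on the progenitor side (median -0.75) and 2 on the hormone side (median -0.22), where 19.2%, 11.4% and 8.71% of all genes were lower. The hormone-side count was 1 without the keratinocyte-transcript libraries and between 1 and 2 with 1 library left out. With edgeR 0 were higher in any class, also at an unadjusted p under 0.05 and with DESeq2. Socs3, the feedback inhibitor of gp130 receptors, stood at 1469, 2093, 1924 and 1862 CPM in basal ducts and 141, 175, 211 and 303 in basal TEBs, without overlap (log2 -3.19 ± 0.34 SE, adjusted p = 6.04e-07). Hormone-side ducts had between 398 and 612 CPM and progenitor-side ducts, which had most Lif, between 71.5 and 127 CPM. In ducts, 5 of 8 were higher in basal than in progenitor-side cells and 1 was lower (26.8% and 26.6% of all genes). Osmr, the oncostatin M receptor, fell in basal TEBs (log2 -1.93, adjusted p = 1.28e-05) and progenitor-side TEBs (log2 -1.95, adjusted p = 3.12e-05). Of 6 secreted antagonists 5 were tested, and with edgeR 0 were called in basal TEBs (0 at an unadjusted p under 0.05, 1 with DESeq2). Il18bp, which neutralises interleukin 18, was at most 5.11 CPM in basal libraries and reached 20.8 CPM in hormone-side TEBs.

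Markers of cells outside the gates were summed in each library, since leukocytes and stroma make many of these ligands. The 21 leukocyte genes, of which S100a9 had no count, summed to 17.1 to 37.2 CPM in basal ducts and 4.57 to 9.03 CPM in basal TEBs. They summed to 7.37 to 20.5 and 6.15 to 10.9 CPM on the progenitor side, and to 5.92 to 7.37 and 2.67 to 4.45 CPM on the hormone side, in ducts and TEBs. Of the 17 tested, 5 were lower in basal TEBs and none was higher, the direction of most called members there. In that contrast 19.2% of all genes tested were lower and 18.2% higher, which also applies to the lists that follow. Cd3e, which defines T cells, was at most 0.608 CPM, and Cd68 carried much of the sum, at up to 20.6 CPM. Ptprc, which marks all leukocytes, was between 0.741 and 7.54 CPM in basal ducts and at most 0.243 in basal TEBs. Endothelial and pericyte genes summed to 34.9 to 161 CPM in basal ducts and 21.5 to 41.2 CPM in basal TEBs, with 5 of 14 lower and the other 9 not called. Fibroblast genes summed to 1149 to 1712 CPM in basal ducts and 751 to 1900 CPM in basal TEBs, with 1 of 12 higher and 1 lower, and to 128 to 169 CPM in progenitor-side ducts and 132 to 346 CPM in progenitor-side TEBs. On the hormone side fibroblast genes summed to 463 to 1068 CPM in ducts and 385 to 859 CPM in TEBs. Of 12 fibroblast genes, 11 were higher in basal ducts than in progenitor-side ducts (26.8% of all genes). Against hormone-side ducts 11 were higher (31.3% of all genes). In TEBs the counts were 12 and 11, where 22.3% and 30.1% of all genes were higher. Endothelial and pericyte genes summed to 5.16 to 22.4 CPM in progenitor-side ducts, 14.9 to 19.5 CPM in progenitor-side TEBs, 57.3 to 109 CPM in hormone-side ducts and 43.5 to 57.8 CPM in hormone-side TEBs. The part of such cells in the members' values was not tested. In bulk libraries, fewer cells of a kind and less RNA per cell cannot be told apart.

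**Figure D5:**
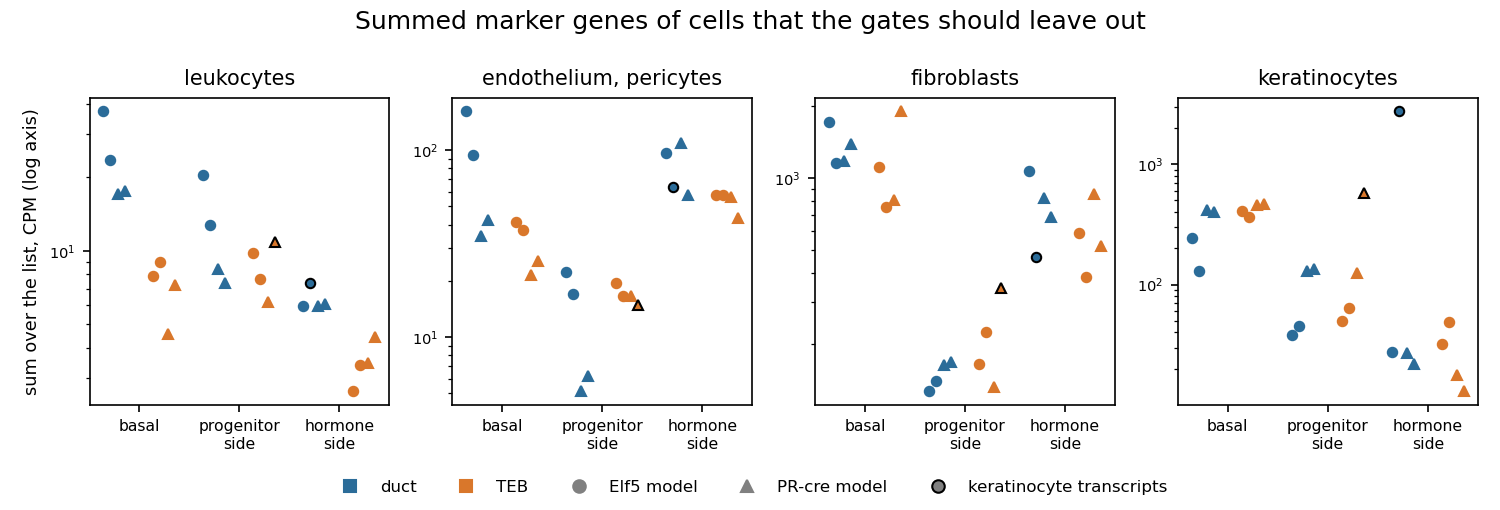
Summed CPM (log axis) of marker genes for leukocytes, endothelium with pericytes, fibroblasts and keratinocytes in 24 libraries. Leukocyte sums are highest in basal ducts (17.1 to 37.2 CPM), and the keratinocyte sum reaches 2739 CPM in GFP- duct replicate 2.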

How the data were processed

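RNA-seq libraries were made per the labels' protocols with a TruSeq kit that does not mark strand. Counts per gene (whole numbers, not normalized) were deposited by the authors, with featureCounts and mm10 named in the submitters' processing notes. Gene IDs were given RefSeq symbols (25275 of 27179 rows; the 1904 without one hold 1.24% of counts). Genes were kept by edgeR 4.0.16 filterByExpr over the 12 groups (minimum count 10, minimum total 15), which left 18109. TMM scaling and the robust quasi-likelihood test were fitted to all 24 libraries with 6 class and tissue groups of 4 and a mouse-model term (17 residual degrees of freedom), and p-values were adjusted by Benjamini-Hochberg over all genes and called under 0.05. CPM are counts divided by the library total over all genes, scaled by the TMM factor from the genes kept. The tests were checked on simulated counts. The members, gene lists and tests were chosen with earlier results of these data known. Members whose mean reached 1 CPM in a group are named with levels, and up to 24 with a called fold above 2 have all values given. Alternatives were RLE size factors, no filter on low counts, DESeq2 1.42.0, a mean for each of the 12 groups, a replicate block and leaving out libraries. Promoters came from RefSeq (GRCm38.p6), and 3 rows that match by symbol but are not protein-coding were left out.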

Additional observations from a re-analysis of the deposited data

Results flagged for a closer look

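Within the 6 sets of 4 libraries, 144 sets of a member's values were examined for a library far from the other 3. The measure was Dixon's ratio of the gap to the nearest library over the whole range, and 13 sets had such a library (9.03%). The cutoff passes about 1 in 20 sets drawn from 1 normal distribution. These sets are skewed CPM from both mouse models, some with 3 values of 0, so that rate is no baseline for them. Luminal GFP- duct replicate 2, the library with keratinocyte transcripts, was far above the other hormone-side ducts for Cxcl14 (137 CPM), Ccl27a (26.8 CPM), Il34 (18.2 CPM), Cxcl16 (48.3 CPM) and Il23a (2.89 CPM). Luminal GFP+ TEB replicate 2 was far above the other progenitor-side TEBs for Lif (303 CPM) and Tnf (89.0 CPM). YFP- TEB replicate 1 was far above them for Cxcl13 (14.5 CPM). GFP+ duct replicate 1 was the high progenitor-side duct library for Il6 (1.16 CPM), and YFP- duct replicate 1 the low library for Cxcl12 (1.62 CPM). In basal TEBs, PR-cre-model replicate 2 was high for Il17b (209 CPM), PR-cre-model replicate 1 had 0.0394 CPM of Cxcl17 and Elf5-model replicate 1 had 0.0748 CPM of Ccl5, where the other 3 had 0 of either.

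The TEB effect (TEBs minus ducts, log2) differed between classes in an edgeR interaction test for several members. Basal minus progenitor side was -7.58 for Ccl2, -4.40 for Ccl5, -2.89 for Cxcl12, -9.95 for Cxcl13, -2.35 for Il33 and -2.13 for Tnfsf9. Basal minus hormone side was -7.08 for Ccl5, -2.19 for Cxcl10, -8.80 for Cxcl13, -2.19 for Cxcl16, -2.32 for Tnfsf12 and -1.87 for Tnfsf9. Progenitor side minus hormone side was 5.84 for Ccl2 and 9.39 for Cxcl14. The Ccl2 and Ccl5 values rest on sets with 3 counts or fewer in every library, so their size depends on the prior count.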

How the results depend on the processing

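Of 145 called contrasts of the members with all values given, 114 kept their direction and call in every fit with 1 library left out and in every other alternative. For named receptors and pathway genes, 205 of 254 called contrasts did so and 0 reversed. Hormone-side TEBs had 12 called members, but 7 with the replicate block and 5 without the pair of libraries with keratinocyte transcripts. The TEB effect of basal minus progenitor side had 8, but 13 with DESeq2 and 14 with 12 separate group means. That of progenitor side minus hormone side had 3, but 6 with DESeq2, 5 with 12 group means and 1 with the replicate block. The luminal difference of ducts reversed for Cxcl14 (log2 0.74 without that pair, and from -5.40 to 0.79 with 1 library left out, the latter without GFP- duct replicate 2) and for Il34 (0.028 without that pair, and from -2.62 to 0.14, the latter without the same library). The cause was not tested.

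With 1 library left out, called TEB changes numbered 15 to 23 in basal cells, 8 to 14 on the progenitor side and 4 to 11 on the hormone side. Gate differences in ducts numbered 30 to 34 (basal, progenitor side), 29 to 35 (basal, hormone side) and 23 to 28 (progenitor side, hormone side), and in TEBs 23 to 27, 26 to 35 and 16 to 23. Differences of TEB effects numbered 5 to 14, 8 to 13 and 2 to 4. Across 30 pairs of groups, libraries that share a replicate number had correlations of 0.003 to 0.152 in their deviations (median 0.046, 4 above 0.1). All were small and positive, which does not settle whether the numbers pair the samples. The main fit did not pair them. The replicate block ended 8 of the 145 calls. Members under 3 counts were not detectable at this depth.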
